A study of Homo sapiens with 12 samples.

Results

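The 40 genes described here encode the enzymes of glycolysis and gluconeogenesis, the carriers that move glucose and lactate across the cell membrane, the oxygen-regulated factor HIF1A with its sensors, and further genes known as targets of that factor. They were picked by symbol, and all 40 were found among the 35984 genes of the deposited counts table. Of these, 37 were abundant enough to be tested, among 16118 genes in all. HK1 (2 to 12 counts per library), PFKP (0 to 21) and EGLN3 (0 or 1) did not pass the filter on low counts and are given as counts only.

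RNA was sequenced from HepG2, an established human hepatoma line, in 4 groups of 3 libraries. The 2 retrovirally transduced lines, both with stably integrated pRetroSUPER shRNA cassettes, were CTL, with control shRNAs, and DKD, with shRNAs against the transcripts of the histone variants macroH2A1 and macroH2A2 (double knock-down). Both were grown in 4.5 g/L glucose with 10% serum and moved overnight to 0.5% serum. Each line then received the inflammatory cytokine TNFα at 20 ng/mL, or its vehicle (the untreated groups), for 24 hours. The labels describe no culture at reduced oxygen. They leave unsaid whether a group's libraries were separate cultures, so a p-value here measures the spread between libraries, which may be technical. Whether each line was 1 transduced pool is also unsaid, and the line and the knock-down cannot be told apart.

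Glycolysis converts glucose to pyruvate in the cytosol, and lactate dehydrogenase reduces pyruvate to lactate, which monocarboxylate transporters carry out of the cell. Gluconeogenesis, a defining task of hepatocytes, runs the path in reverse through its own enzymes, among them phosphoenolpyruvate carboxykinase and fructose bisphosphatase. HIF-1 binds the core letters ACGTG or GCGTG near many glycolytic genes and raises their transcription when oxygen is low, because the prolyl hydroxylases that mark its α subunit for destruction need oxygen. Hepatoma cells commonly use hexokinase 2 and high glycolysis, unlike normal hepatocytes.

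Upstream sequences are shown for 5 members whose values carry the results: HK2 and LDHA, lower with TNFα, and BNIP3, SLC2A2 and LDHB, which differed between the lines. The sequences come from RefSeq (GRCh38.p14). Each is taken from the 250 bases before a transcript start, cut where an exon of the gene annotated in GENCODE v29 begins within them. The stretches of HK2, LDHA and LDHB come before an inner start and lie within the annotated span of the gene, and those of BNIP3 and SLC2A2 lie before it. Lower case is used throughout, and capitals mark ACGTG or GCGTG read on either strand (CACGT or CACGC in the other orientation, so CACGTG matches on both).
HK2, chr2:74834920-74835169, plus strand: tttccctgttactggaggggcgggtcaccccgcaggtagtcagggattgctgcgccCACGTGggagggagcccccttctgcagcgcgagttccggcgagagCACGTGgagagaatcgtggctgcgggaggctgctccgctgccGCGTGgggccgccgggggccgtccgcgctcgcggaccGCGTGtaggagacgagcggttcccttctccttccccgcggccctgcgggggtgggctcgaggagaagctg
LDHA, chr11:18396101-18396265, plus strand: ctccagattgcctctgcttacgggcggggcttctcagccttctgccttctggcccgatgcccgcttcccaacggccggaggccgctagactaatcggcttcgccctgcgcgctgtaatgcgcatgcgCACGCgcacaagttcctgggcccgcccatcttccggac
BNIP3, chr10:131982014-131982173, minus strand: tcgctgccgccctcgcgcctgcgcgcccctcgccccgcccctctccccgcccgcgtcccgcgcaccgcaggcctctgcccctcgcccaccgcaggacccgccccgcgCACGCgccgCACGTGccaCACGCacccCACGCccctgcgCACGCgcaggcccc
SLC2A2, chr3:171026751-171026970, minus strand: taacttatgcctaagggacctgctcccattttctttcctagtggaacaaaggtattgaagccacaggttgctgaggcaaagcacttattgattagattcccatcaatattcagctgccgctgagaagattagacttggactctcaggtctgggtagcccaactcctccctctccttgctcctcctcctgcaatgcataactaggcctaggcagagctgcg
LDHB, chr12:21657972-21658092, minus strand: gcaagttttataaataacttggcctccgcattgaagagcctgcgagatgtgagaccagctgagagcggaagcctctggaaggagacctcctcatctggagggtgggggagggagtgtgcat
The HK2 stretch has 4 capital stretches, LDHA 1 and BNIP3 5, while SLC2A2 and LDHB have 0. HK2 and LDHA have 2 windows each in the table, of which 1 is printed. The window of HK2 not printed has 3 capital stretches, and that of LDHA also has 3 (5 matches, some overlapping), more than the 1 in the stretch printed. Windows were read for 35 of the 40 members (63 windows). For VEGFA, PCK1, BNIP3L, SLC2A3 and NDRG1 a window was either absent or not read. ACGTG or GCGTG occurred in 36 of the 63 member windows (57.1%), in 27 members, against 43.2% of all 35116 windows. Member windows were also richer in CpG, with a median of 22 against 11 in all windows. The NF-kB motif occurred in 3 member windows (4.76%, in PFKFB3 and PFKM), against 5.21% of all windows. A match describes letters only and shows no binding, and the shares are given without a test.

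Library totals ran from 30955080 to 42094144 estimated counts, and members took 0.787% to 1.16% of them. Levels are given as CPM, counts per 1000000 of a library size scaled with TMM factors, always in the order of libraries 1, 2 and 3. MACROH2A1 averaged 236 ± 27.4 CPM (SD, n = 3) in untreated CTL and 46.2 ± 12.2 in untreated DKD cells, and 268 ± 11 and 55.5 ± 10.1 with TNFα. MACROH2A2 averaged 57.8 ± 2.85 and 5.11 ± 0.790 CPM untreated, and 46.4 ± 5.09 and 3.96 ± 0.682 with TNFα. All 9 hepatocyte markers reached 1 CPM in every library, while 4 of 5 leukocyte, 3 of 4 endothelial and 4 of 4 stromal markers stayed under 1 CPM in every library. The DKD libraries numbered 1 stood apart on the first principal component (33.0% of the variance), at 83.7 and 53.9 against -41.5 to 18.2 for the other 10. Libraries with the same number deviated together in all 4 groups, so each test was run without and with the library number as a block, called the block below.

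Few members changed beyond the spread of the libraries when their numbering was ignored, and more did when it was used. A member was called at an edgeR adjusted p under 0.05, adjusted over all 16118 genes. For TNFα in CTL cells, 0 of 37 members were called without the block and 9 with it, where 2.62% and 12.6% of all genes were. Without the block 7 members had an unadjusted p under 0.05 (13.9% of all genes did), and DESeq2 called 2 (7.10% of all genes). In DKD cells TNFα gave 0 members without and 8 with the block, against 1.79% and 7.67% of all genes. Again 7 passed unadjusted (10.1% of all genes) and 2 by DESeq2 (4.23%).

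With the TNFα effect averaged over both lines, P4HA2 rose and HK2, LDHA and PCK1 fell without the block. With it, 5 members rose and 7 fell. Over all genes, 5.02% rose and 2.20% fell without the block, and 12.4% and 8.82% with it. The median log2 fold change of the members was -0.05, against -0.00 over all genes tested.

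Between the lines, LDHB, PFKM and SLC2A2 were higher and BNIP3 lower in untreated DKD cells without the block, 4 of 37 against 4.98% of all genes. With the block 7 were higher and 7 lower, against 16.5% of all genes. With TNFα, PFKM and LDHB were higher and BNIP3 and HK2 lower, 4 of 37 against 6.24%. The block gave 5 higher and 7 lower, against 19.4%. Averaged over both treatments, LDHB, PCK1, PFKM and SLC2A2 were higher and BNIP3, HK2 and SLC16A3 lower. The background was 8.49% of genes higher and 6.04% lower. With the block 8 members were higher and 9 lower, against 15.8% and 15.4%. The members' median was -0.04, against 0.01 over all genes. LDHB is among the members called in each of these comparisons, though it passed the filter on low counts through its DKD libraries alone.

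The TNFα effect of the lines was compared by the interaction (effect in DKD minus effect in CTL cells). No member was called by edgeR, with or without the block (0% of all genes in both). At an unadjusted p under 0.05 there were 0 members without and 2 with the block, against 1.14% and 3.45% of all genes. DESeq2 called 0 members in both designs, against 0.0311% and 0.136% of all genes. The comparisons of TNFα and of the lines share libraries, so they are not independent of each other.

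**Figure D1:**
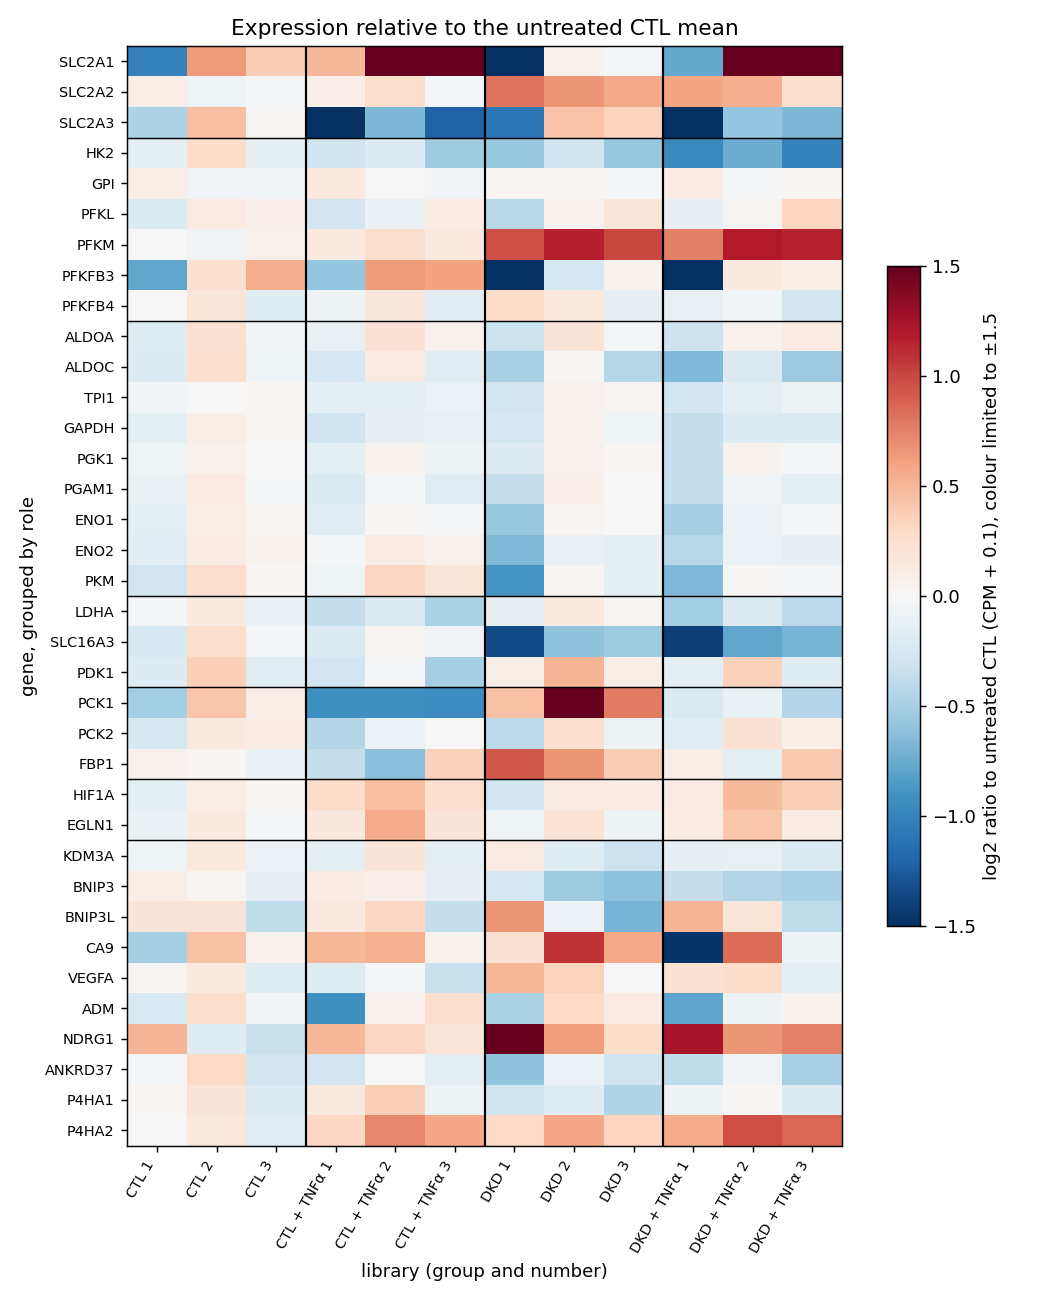
Heat map of 36 members (LDHB and the 3 untested members are left out), grouped by role, in the 12 libraries. Colour is log2 of (CPM + 0.1) relative to the mean of untreated CTL cells, limited to ±1.5. SLC2A1 is red in every TNFα-treated library except DKD TNFα 1, which stays blue, and SLC2A3 is blue in every treated library of both lines. PFKM is red in all 6 DKD libraries, and the libraries numbered 1 are bluer for many members.

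With the block, the glucose transporter SLC2A1 rose and SLC2A3 fell with TNFα in both lines. SLC2A1 (GLUT1, the widespread high-affinity carrier; chr1:42925375-42959176, minus strand) stood at 127, 403 and 333 CPM in untreated CTL and 361, 916 and 959.9 in TNFα-treated CTL cells. In DKD cells it stood at 81.5, 269 and 254 CPM untreated and 152, 788 and 823 with TNFα. Each treated library was above the untreated library of the same number in both lines, but libraries numbered 1 were so low in every group that the groups overlapped. The averaged log2 fold change was 1.46 (SE 0.48, edgeR adjusted p = 0.101) without the block and 1.41 (SE 0.13, adjusted p = 4.38e-05) with it. DESeq2 gave an adjusted p of 0.0459 without the block. In bulk RNA, fewer cells expressing a gene and less RNA per cell cannot be told apart.

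SLC2A3 (GLUT3, the high-affinity carrier typical of neurons; chr12:7919230-7936275, minus strand) was lower with TNFα. In CTL cells it measured 155, 292 and 217 CPM untreated and 72.0, 135 and 92.4 with TNFα. DKD libraries held 100.1, 288 and 269 CPM untreated and 58.2, 143 and 134 treated. All 6 numbered pairs were lower with TNFα, and the groups did not overlap in CTL cells. The averaged log2 fold change was -1.06 (SE 0.31, edgeR adjusted p = 0.0668), and -1.05 (SE 0.12, adjusted p = 0.000242) with the block. With the block, the DKD call was lost without DKD TNFα 2 (adjusted p = 0.0502). Near-identical copies of SLC2A3 held 2.93% to 22.4% as many counts as the gene, so its level is uncertain where reads could be split among them. Its paralog SLC2A14 averaged 12, 9.29, 12.9 and 11.2 CPM in untreated CTL, treated CTL, untreated DKD and treated DKD cells.

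The ratio of SLC2A1 to SLC2A3 counts, chosen after the values were seen, was 0.820, 1.38 and 1.53 in untreated CTL and 5.02, 6.81 and 10.4 in treated CTL cells. The DKD line gave 0.814, 0.935 and 0.944 untreated and 2.61, 5.51 and 6.14 treated. The geometric mean ratio was 5.90-fold higher in CTL and 4.97-fold higher in DKD cells with TNFα, and treated and untreated libraries did not overlap in either line. The 2-sided exact permutation p was 0.1 in each, the smallest that 3 against 3 can give.

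SLC2A1 also differed between the lines with the block, with an averaged log2 difference of -0.54 (SE 0.13, adjusted p = 0.00821), and of -0.43 (SE 0.47, adjusted p = 0.62) without it. This rested in part on the DKD libraries numbered 1: without both, the values were -0.35 (adjusted p = 0.00108) and -0.01 (adjusted p = 0.99).

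SLC2A2 (GLUT2, the low-affinity hepatocyte carrier; chr3:170996348-171026750, minus strand) was the one of the 3 member transporters that was higher in DKD cells. It measured 58.9, 52.2 and 53.6 CPM in untreated CTL and 96.6, 86.7 and 81.4 in untreated DKD cells. With TNFα it measured 58.0, 65.9 and 53.7 in CTL and 82.9, 79.9 and 65.0 in DKD cells. The untreated groups did not overlap, and the treated groups overlapped by 1 library. The log2 difference was 0.68 (SE 0.12, edgeR adjusted p = 0.00597) untreated, 0.36 (SE 0.12, adjusted p = 0.107, and 0.0132 with the block) with TNFα, and 0.52 (SE 0.08, adjusted p = 0.00148) averaged. With the block, the call with TNFα was lost without CTL TNFα 1 or 3 or DKD TNFα 1 or 2 (adjusted p up to 0.0738). The interaction was -0.33 (SE 0.16, adjusted p = 1). The summed level of the 9 hepatocyte markers differed with it. Untreated, the sums spanned 22140 to 23895 CPM in CTL and 27438 to 40715 in DKD cells, and with TNFα 17721 to 19643 in CTL and 20857 to 27517 in DKD cells. Their part in the SLC2A2 difference was not tested.

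**Figure D2:**
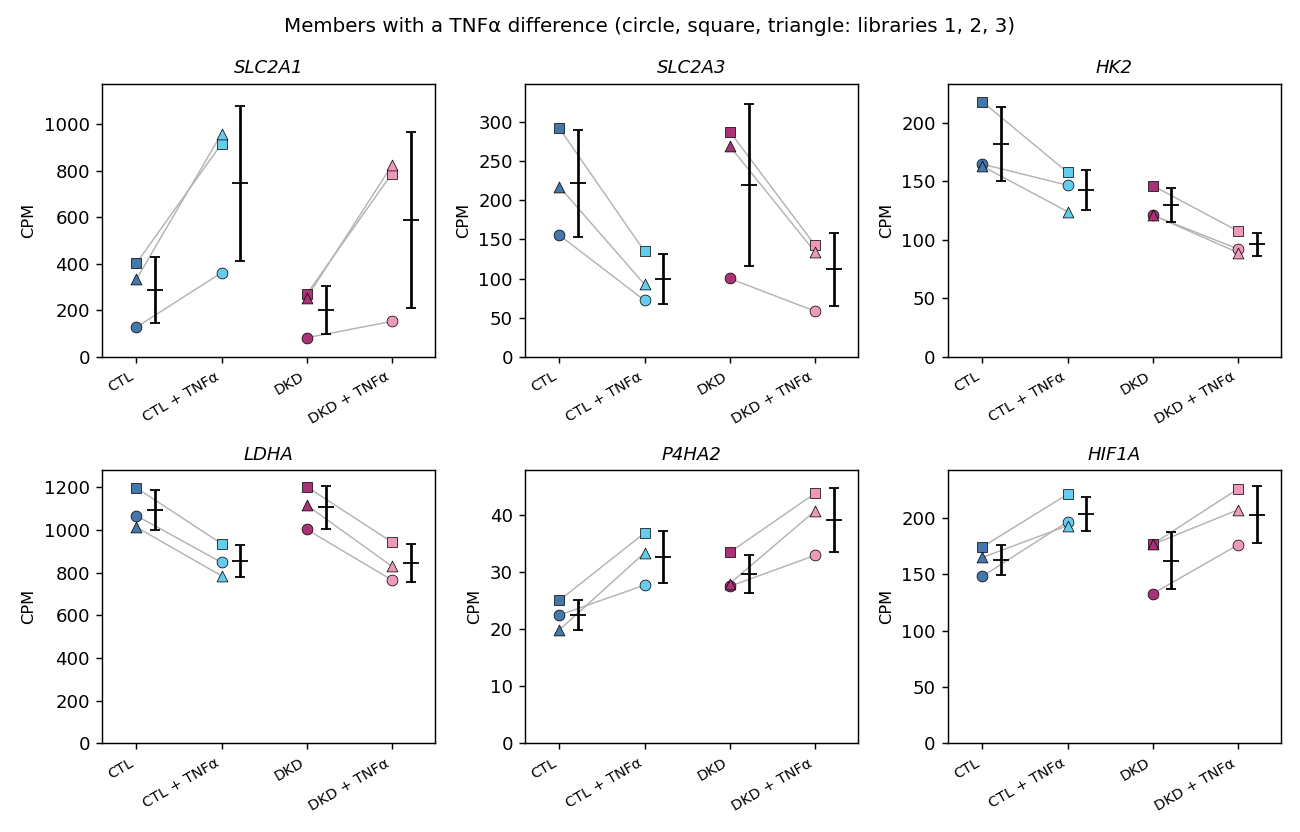
CPM of 6 members in each library (circle, square and triangle for libraries 1, 2 and 3), with lines joining untreated and TNFα-treated libraries of the same number, and the group mean ± SD (n = 3). SLC2A1 is higher and SLC2A3 lower with TNFα in every pair, HK2 and LDHA are lower and P4HA2 and HIF1A higher in every treated library than in its untreated partner.

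HK2 and PFKL were the main transcripts of their steps, and HK2 differed by treatment and by line. HK2 (hexokinase 2, which traps glucose by phosphorylating it; chr2:74833981-74893359, plus strand), shown above with its upstream sequence, measured 165, 218 and 163 CPM in untreated and 147, 158 and 124 in treated CTL cells. In DKD cells it measured 121, 146 and 121 CPM untreated and 92.1, 107 and 88.9 treated. It was highest in untreated CTL and lowest in treated DKD cells, and treated and untreated libraries of a line, or CTL and DKD libraries of a treatment, did not overlap. The averaged TNFα log2 fold change was -0.39 (SE 0.10, edgeR adjusted p = 0.0375, and 0.000288 with the block). The call without the block was lost when CTL untreated 2, CTL TNFα 1, CTL TNFα 3, DKD untreated 2, DKD TNFα 1 or DKD TNFα 3 was left out, at adjusted p between 0.0547 and 0.0952. The line difference was -0.53 (SE 0.10, adjusted p = 0.00444) averaged, -0.57 (SE 0.14, adjusted p = 0.0361) with TNFα and -0.49 (SE 0.14, adjusted p = 0.0793, and 0.000819 with the block) untreated. The difference with TNFα was lost without CTL TNFα 1, CTL TNFα 2, DKD TNFα 1 or DKD TNFα 3 (adjusted p 0.103 to 0.143), and was called with the block whichever library was left out.

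HK1, the housekeeping hexokinase, had 4, 3 and 6 counts in untreated and 6, 9 and 7 in treated CTL cells, and 2, 6 and 6, then 12, 8 and 8 in DKD cells. Per kilobase of principal transcript, HK2 made up 99.6% to 99.9% of the sum of both hexokinases in the 4 groups. GPI, which isomerises glucose 6-phosphate, averaged 359 to 369.6 CPM in the groups and was not called in any comparison.

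PFKM (the muscle-type phosphofructokinase, which commits sugar to glycolysis; chr12:48105139-48146404, plus strand) was higher in DKD cells. It measured 3.79, 3.65 and 3.98 CPM in untreated and 4.22, 4.50 and 4.22 in treated CTL cells, against 7.54, 8.63 and 7.75 and 6.52, 8.79 and 8.61 in DKD cells. Every DKD library exceeded every CTL library. The log2 difference was 1.06 (SE 0.14, edgeR adjusted p = 0.00158) untreated, 0.89 (SE 0.14, adjusted p = 0.00343) with TNFα and 0.98 (SE 0.10, adjusted p = 9.1e-05) averaged, a 1.97-fold difference, and none of these calls was lost when a library was left out. PFKM, with 114 to 366 counts per library, overlaps an exon of SENP1 (1239 to 2004 counts) on the other strand. Whether counting used strand is not given, so reads of SENP1 may be part of the PFKM level, which was not tested.

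PFKL, the liver-type isoenzyme, measured 91.0, 114 and 110.2 CPM in untreated and 86.5, 97.5 and 113 in treated CTL cells, and 78.4, 109.7 and 118, then 95.6, 107 and 130.2 in DKD cells, and was not called. The ratio of PFKM to PFKL counts, chosen after the values were seen, was 2.17-fold higher in geometric mean in untreated DKD than in untreated CTL cells and 1.64-fold higher with TNFα (2-sided exact permutation p = 0.1 in each). PFKM was still a minor form, since per kilobase it made up 3.20% of the 3 phosphofructokinases in untreated CTL and 6.74% in untreated DKD cells, and 3.81% and 6.10% with TNFα. The third isoenzyme, PFKP, had 1, 3 and 1 counts in untreated CTL and 7, 14 and 21 in treated CTL cells. DKD libraries held 0, 2 and 1, then 2, 6 and 6 counts. All 3 treated libraries were above the untreated ones in CTL cells, at levels of at most 0.504 CPM. With no filter on low counts PFKP was called for the averaged TNFα effect.

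PFKFB3 and PFKFB4 make fructose 2,6-bisphosphate, the activator of phosphofructokinase. PFKFB3 measured 1.02, 2.18 and 2.71 CPM in untreated and 1.2, 2.91 and 2.83 in treated CTL cells, and 0.355, 1.52 and 1.91, then 0.250, 2.04 and 1.94 in DKD cells. Libraries numbered 1 were the lowest of every group, and all groups overlapped. The averaged line difference was -0.67 (SE 0.51, edgeR adjusted p = 0.457), and -0.84 (SE 0.22, adjusted p = 0.0166) with the block, which became -0.52 (adjusted p = 0.0135) without both DKD libraries numbered 1. PFKFB4 measured 26.4, 30.1 and 23.4 CPM in untreated and 25.2, 29.7 and 23.6 in treated CTL cells, and 32.2, 29.4 and 24.4, then 24.5, 25.8 and 21.9 in DKD cells. It was not called.

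**Figure D3:**
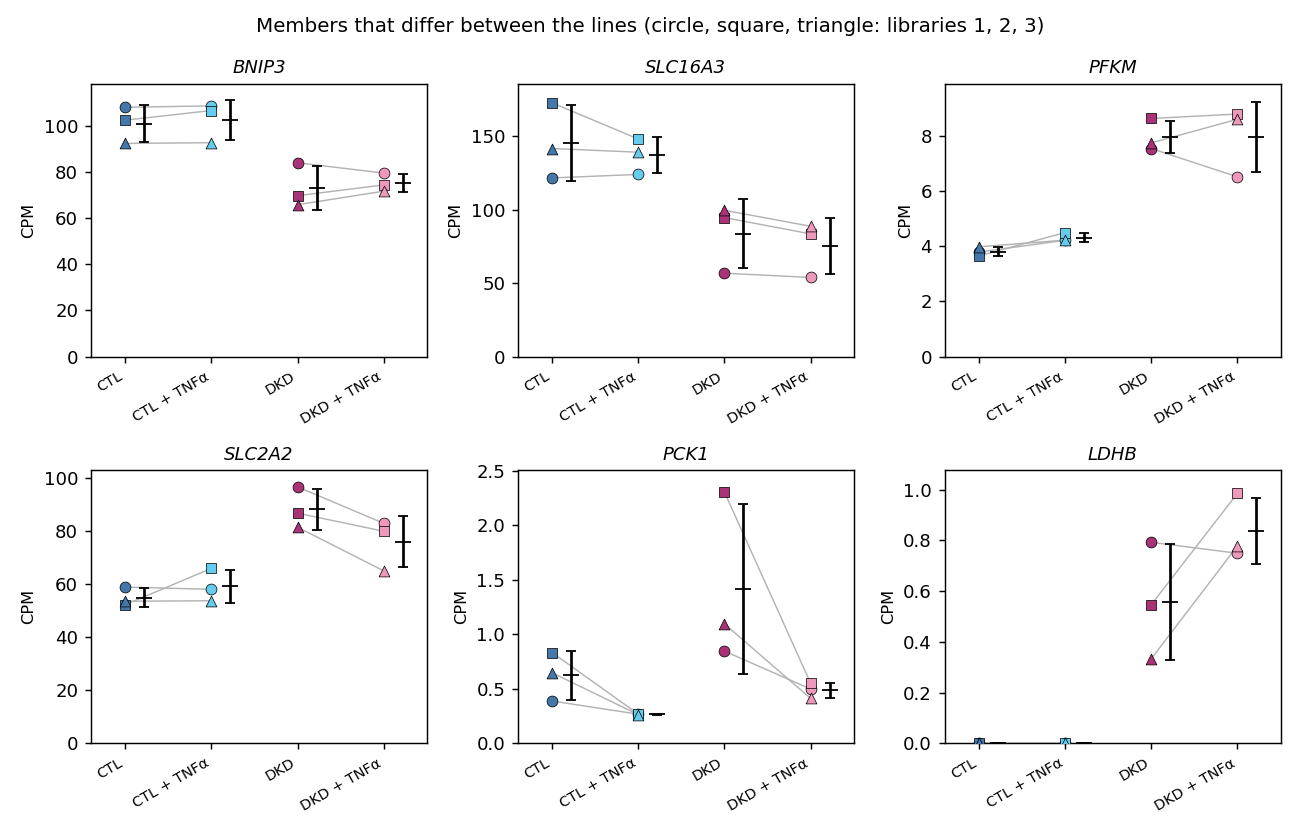
CPM of 6 members that differed between the lines, with symbols, joining lines and mean ± SD (n = 3) as in the plot of TNFα members. BNIP3 and SLC16A3 are lower and PFKM and LDHB higher in every DKD library than in any CTL library, and LDHB is at 0 in all 6 CTL libraries.

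The later steps of the path, from aldolase to pyruvate kinase, held the most abundant members. Of their 9 genes, 0 were called in any comparison without the block. Over all genes, 1.79% were called for TNFα in DKD cells and 6.24% between the treated lines. For the averaged line difference, 8.49% were higher and 6.04% lower. With shares this small, 0 of 9 does not set these genes apart. With the block, GAPDH was called for TNFα, and ALDOC, ENO2 and PKM for the line, all lower. With the block and averaged, 8.82% of all genes were lower with TNFα and 15.4% lower in DKD cells. GAPDH (glyceraldehyde 3-phosphate dehydrogenase, often used as a reference gene) measured 2594, 3051 and 2898 CPM in untreated and 2315, 2619 and 2632 in treated CTL cells, and 2359, 2958 and 2723, then 2223, 2494 and 2467 in DKD cells. It was lower with TNFα in all 6 pairs, with overlapping groups, and the averaged log2 fold change was -0.17 (SE 0.07, edgeR adjusted p = 0.182, and SE 0.03, adjusted p = 0.00447 with the block).

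PKM, which makes pyruvate, measured 518, 745 and 640.5 CPM in untreated and 600.2, 780.1 and 712 in treated CTL cells, and 339.6, 633 and 573, then 396, 633 and 614 in DKD cells. All 6 DKD libraries were below their CTL partners, with overlapping groups. The averaged difference was -0.32 (SE 0.17, adjusted p = 0.256), -0.35 (SE 0.07, adjusted p = 0.00308) with the block, and -0.22 (adjusted p = 0.0014) with the block and without both DKD libraries numbered 1.

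ENO2, the neuronal-type enolase, was likewise lower in each DKD library than in its CTL partner. It measured 90.8, 109.8 and 105 CPM in untreated and 99.7, 109.5 and 107 in treated CTL cells, and 64.1, 94.8 and 92.0, then 76.3, 95.8 and 93.1 in DKD cells, with overlap only in the untreated groups. The averaged difference was -0.27 (SE 0.10, adjusted p = 0.118), and -0.28 (SE 0.06, adjusted p = 0.0041) with the block. ALDOC, the brain-type aldolase, measured 7.05, 9.65 and 7.73 CPM in untreated and 6.78, 8.78 and 7.15 in treated CTL cells. The DKD line gave 5.71, 8.18 and 5.98, then 5.04, 6.94 and 5.49. Each DKD library was below its CTL partner, with an averaged difference of -0.34 (SE 0.14, adjusted p = 0.142, and SE 0.06, adjusted p = 0.00215 with the block).

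Their major isoenzymes were not called. ALDOA measured 616, 821 and 681 CPM in untreated and 648, 814 and 735 in treated CTL cells, and 560.1, 800.2 and 688, then 565, 734 and 756 in DKD cells. ENO1 measured 1363, 1625 and 1561 CPM in untreated and 1359.6, 1531 and 1489 in treated CTL cells, and 1023, 1554 and 1516, then 1069, 1419 and 1492 in DKD cells. Per kilobase, ALDOA made up 99.1% to 99.3% of its pair and ENO1 94.4% to 95.1% in the 4 groups. TPI1 (group means 563 to 631 CPM), PGK1 (345 to 370.1) and PGAM1 (376 to 426) were not called.

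LDHA (lactate dehydrogenase A, which favours lactate formation; chr11:18394388-18408425, plus strand) fell with TNFα when both lines were averaged. It measured 1068, 1198 and 1014 CPM in untreated and 848, 936 and 785 in treated CTL cells. In DKD cells it measured 1003, 1203 and 1117 CPM untreated and 766, 944 and 830.3 treated. Treated and untreated libraries did not overlap in either line, and the lines overlapped. The averaged log2 fold change was -0.37 (SE 0.07, edgeR adjusted p = 0.0117), 0.774-fold, and the call was kept whichever library was left out. In single lines it was -0.35 (SE 0.10, adjusted p = 0.122, and 0.00393 with the block) and -0.39 (SE 0.10, adjusted p = 0.119, and 0.00295 with the block). Its processed copy LDHAP7, at 37.1 ± 1.07 CPM in untreated CTL cells (SD, n = 3), also fell (averaged log2 fold change -0.33, SE 0.08, adjusted p = 0.0218). Copies of LDHA held 4.72% to 5.11% as many counts as the gene.

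LDHB (lactate dehydrogenase B, which favours pyruvate formation; chr12:21635342-21757857, minus strand) had 0 counts in all 6 CTL libraries. DKD cells had 29, 23 and 14 counts untreated (0.792, 0.547 and 0.334 CPM) and 30, 41 and 32 treated (0.749, 0.985 and 0.778 CPM). Against a floor of 3 counts over a group, DKD cells were at least 20.8-fold higher untreated and at least 34.6-fold higher with TNFα. The edgeR adjusted p was 0.00303 untreated, 0.00154 with TNFα and 0.000173 averaged. LDHB passed the filter on low counts through its DKD libraries alone, so these p-values are no independent support for the difference. The pseudogene LDHBP1 had 9 to 20 counts in every library of both lines. LDHB remained a trace beside LDHA, at 0.0807% and 0.155% of the per-kilobase sum of the pair in untreated and treated DKD cells.

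SLC16A3 (MCT4, the lactate exporter of glycolytic cells; chr17:82228397-82261129, plus strand) was lower in DKD cells. It measured 122, 173 and 142 CPM in untreated and 124, 148 and 139 in treated CTL cells, against 56.8, 94.7 and 99.6 and 53.9, 83.6 and 88.8 in DKD cells. Every DKD library lay below every CTL library. The averaged log2 difference was -0.83 (SE 0.16, edgeR adjusted p = 0.00643), and -0.62 (adjusted p = 0.00129) without both DKD libraries numbered 1, which were the lowest. Singly, the untreated and treated differences were -0.80 (SE 0.23, adjusted p = 0.0873, and 0.00128 with the block) and -0.86 (SE 0.23, adjusted p = 0.0541, and 0.000647 with the block). SLC16A3, with 2079 to 6062 counts per library, overlaps an exon of CSNK1D (4334 to 6185 counts) on the other strand. The strand setting of the counts is not given in the sources used here. Reads of CSNK1D may therefore be part of the SLC16A3 level, which was not tested. The same holds for PFKM with SENP1.

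PDK1, a kinase that holds pyruvate out of the mitochondrial citric acid cycle, measured 23.8, 34.8 and 24.3 CPM in untreated and 22.3, 26.6 and 19.2 in treated CTL cells, and 28.8, 38.9 and 28.8, then 24.6, 34.7 and 23.9 in DKD cells. It was lower with TNFα and higher in DKD cells in all 6 numbered pairs of each comparison, with overlapping groups. The averaged TNFα effect was -0.25 (SE 0.15, edgeR adjusted p = 0.405, and SE 0.05, adjusted p = 0.0072 with the block), and the averaged line difference 0.26 (SE 0.15, adjusted p = 0.303, and 0.25, SE 0.05, adjusted p = 0.00395 with the block).

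Of the 3 gluconeogenic enzymes, PCK1 (cytosolic phosphoenolpyruvate carboxykinase, rate-limiting for hepatic glucose output; chr20:57561080-57568112, plus strand) changed in both comparisons, at very low levels. It measured 0.389, 0.833 and 0.648 CPM in untreated and 0.268, 0.269 and 0.264 in treated CTL cells. DKD libraries held 0.847, 2.31 and 1.10 CPM untreated and 0.499, 0.553 and 0.413 treated. Treated libraries lay below all untreated libraries of their line, and DKD libraries above all CTL libraries of their treatment. The averaged TNFα effect was -1.37 (SE 0.29, edgeR adjusted p = 0.0153), and the line difference 1.03 (SE 0.29, adjusted p = 0.0348, and 0.00836 with the block). The line difference without the block was lost when any of 9 libraries was left out (adjusted p 0.0508 to 0.0799), which were all but CTL untreated 2, DKD untreated 1 and DKD untreated 3. It was 0.76 without DKD untreated 2, the highest library. The sums of hepatocyte markers given with SLC2A2 moved in the same directions, and their part in the PCK1 values was not tested.

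PCK2, the mitochondrial form, measured 63.8, 82.4 and 81.3 CPM in untreated and 55.3, 70.6 and 74.9 in treated CTL cells, and 57.4, 88.9 and 71.7, then 67.3, 87.2 and 80.0 in DKD cells, and was not called. Per kilobase, PCK1 was 0.436% of the pair in untreated CTL and 1.0% in untreated DKD cells, and 0.220% and 0.341% with TNFα. FBP1 (fructose bisphosphatase) averaged 0.624 ± 0.0428, 0.549 ± 0.236, 1.06 ± 0.225 and 0.693 ± 0.150 CPM (SD, n = 3) in untreated CTL, treated CTL, untreated DKD and treated DKD cells. It was not called (averaged line difference 0.54, SE 0.23, adjusted p = 0.144, and 0.0866 with the block).

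HIF1A (the oxygen-labile subunit of HIF-1, controlled largely at the protein level; chr14:61695513-61748259, plus strand) measured 148, 174 and 165 CPM in untreated and 197, 221 and 193 in treated CTL cells. The DKD line gave 133, 177 and 177, then 176, 226 and 207 CPM. Each treated library was above its partner, without overlap in CTL cells. The averaged TNFα effect was 0.32 (SE 0.09, edgeR adjusted p = 0.0571), and 0.33 (SE 0.05, adjusted p = 0.00157) with the block, while the line difference was -0.00 (SE 0.09, adjusted p = 0.983).

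EGLN1 (PHD2, the main hydroxylase that marks HIF1A) was also higher with TNFα. It measured 57.3, 67.4 and 60.2 CPM in untreated and 69.4, 90.2 and 70.5 in treated CTL cells, and 58.7, 71.1 and 58.4, then 66.7, 81.9 and 66.7 in DKD cells. All 6 pairs were higher with TNFα, and the CTL groups did not overlap. The averaged effect was 0.25 (SE 0.09, adjusted p = 0.149, and SE 0.04, adjusted p = 0.00155 with the block). EGLN3, a hydroxylase that is itself a HIF target, had 1, 1 and 0 counts in treated DKD cells and 0 in the other 9 libraries.

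Of the remaining 10 hypoxia targets, 2 were called without the block, in different comparisons. Without the block, P4HA2 alone of the 10 rose with the averaged TNFα effect, where 5.02% of all genes rose, and BNIP3 alone was lower in DKD cells on average, where 6.04% of all genes were. P4HA2 (a collagen prolyl hydroxylase subunit; chr5:132191838-132295315, minus strand) measured 22.5, 25.1 and 19.9 CPM in untreated and 27.8, 36.9 and 33.5 in treated CTL cells, and 27.6, 33.5 and 28.1, then 33.0, 43.9 and 40.8 in DKD cells. All 6 pairs were higher with TNFα, without overlap in CTL cells. The averaged TNFα effect was 0.47 (SE 0.10, edgeR adjusted p = 0.02, and 0.000675 with the block), 1.38-fold. Without the block the call was lost when CTL untreated 1 or 3, CTL TNFα 2 or 3, DKD untreated 3 or DKD TNFα 2 or 3 was left out, at adjusted p from 0.0514 to 0.0776. P4HA2 was also higher in DKD cells by 0.33 on average (SE 0.10, adjusted p = 0.058, and SE 0.06, adjusted p = 0.00315 with the block).

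Its partner isoform P4HA1 measured 91.1, 102 and 76.6 CPM in untreated and 98.4, 114 and 84.9 in treated CTL cells, and 72.8, 79.0 and 65.1, then 84.5, 90.2 and 77.2 in DKD cells. It was lower in DKD cells in all 6 pairs, with an averaged difference of -0.28 (SE 0.09, adjusted p = 0.0783), and -0.27 (SE 0.04, adjusted p = 0.000644) with the block. It was higher with TNFα in all 6 pairs, by 0.18 (SE 0.09, adjusted p = 0.338, and SE 0.04, adjusted p = 0.0105 with the block). The latter call was lost without CTL untreated 3, CTL TNFα 2 or DKD TNFα 3 (adjusted p up to 0.0688). Per kilobase, P4HA2 was 17.6% of the pair in untreated CTL, 22% in treated CTL, 25.9% in untreated DKD and 28.4% in treated DKD cells.

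BNIP3 (a mitophagy receptor and HIF target; chr10:131966455-131982013, minus strand), whose upstream stretch held 5 capital stretches, measured 108, 102 and 92.3 CPM in untreated and 109, 106 and 92.6 in treated CTL cells. In DKD cells it measured 83.9, 69.7 and 65.7, then 79.4, 74.3 and 71.6 CPM. Every DKD library lay below every CTL library. The log2 difference was -0.46 (SE 0.11, edgeR adjusted p = 0.0319) untreated, -0.45 (SE 0.11, adjusted p = 0.0327) with TNFα and -0.46 (SE 0.08, adjusted p = 0.00218) averaged, 0.729-fold, and the averaged call was kept whichever library was left out. The untreated call was lost without CTL untreated 1 or 2 or DKD untreated 2 or 3 (adjusted p 0.0873 to 0.116), and the treated call without CTL TNFα 1 or 2 or any DKD TNFα library (0.0573 to 0.107). All were called with the block. Copies of BNIP3 held 9.64% to 14.0% as many counts as the gene, and the copy BNIP3P1 was also lower in DKD cells (-0.41, SE 0.09, adjusted p = 0.0124), so reads may be split between them.

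BNIP3L, the related receptor, measured 31.2, 31.2 and 20.9 CPM in untreated and 30.1, 34.0 and 21.2 in treated CTL cells, and 43.3, 25.6 and 16.7, then 39.1, 31 and 21.0 in DKD cells. The 3 libraries of each group spread more than the groups, and it was not called. VEGFA, the angiogenic growth factor, measured 67.8, 72.8 and 58.4 CPM in untreated and 58.1, 65.0 and 52.6 in treated CTL cells, and 93.4, 83.3 and 66.3, then 77.3, 79.7 and 59.8 in DKD cells. It was higher in DKD cells in all 6 pairs, by 0.30 (SE 0.11, adjusted p = 0.0966), and 0.29 (SE 0.05, adjusted p = 0.00212) with the block. Its TNFα effect of -0.17 was called only with the block (adjusted p = 0.0426, against 0.434), and was lost without any 1 of the CTL untreated libraries, CTL TNFα 3 or any 1 of the DKD TNFα libraries (adjusted p up to 0.0783).

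NDRG1, a stress and hypoxia response gene, measured 10.4, 6.44 and 5.78 CPM in untreated and 10.3, 9.09 and 8.26 in treated CTL cells, and 27.9, 11.3 and 8.84, then 17.3, 11.6 and 12.3 in DKD cells. Libraries numbered 1 were the highest of each group, opposite to most members. The averaged line difference was 0.83 (SE 0.27, adjusted p = 0.0689), 0.77 (SE 0.15, adjusted p = 0.00354) with the block and 0.59 (adjusted p = 0.00208) with the block and without both DKD libraries numbered 1. CA9, carbonic anhydrase 9, a membrane enzyme used as a hypoxia marker, stayed between 0.225 and 1.81 CPM. KDM3A (group means 74.7 to 83.1 CPM), ADM (4.46 to 5.30) and ANKRD37 (1.65 to 2.11) were not called. ANKRD37, with 49 to 85 counts per library, overlaps an exon of UFSP2 (801 to 1301 counts) on the other strand.

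**Figure D4:**
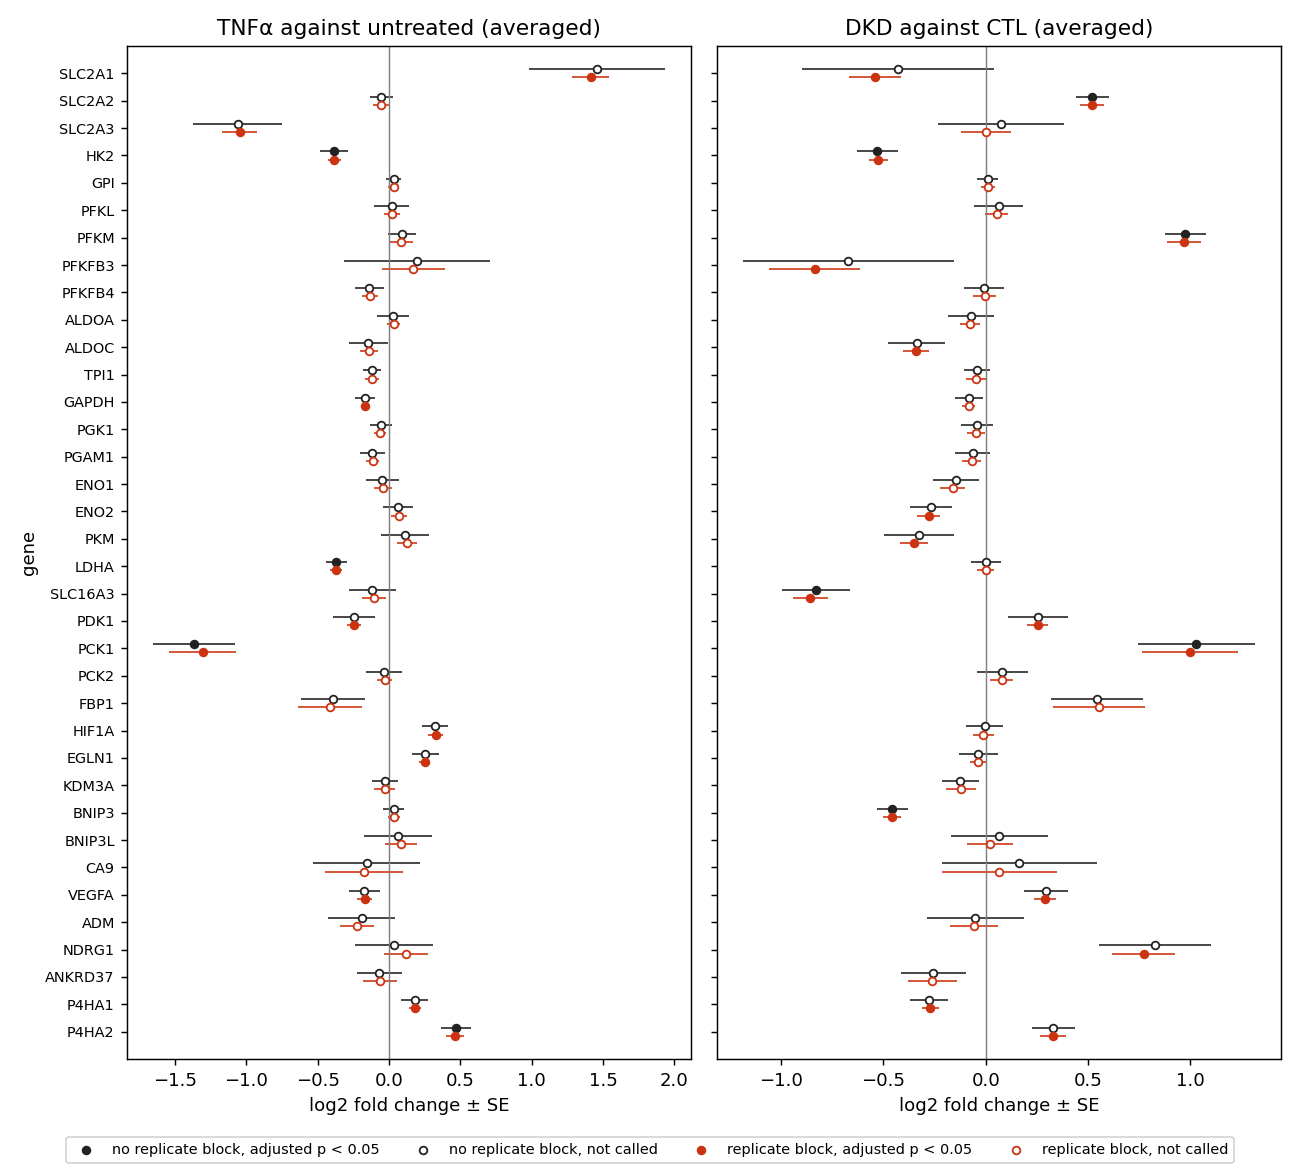
Averaged log2 fold changes ± SE of 36 members for TNFα (left) and for DKD against CTL (right), without the block (black) and with it (red). Filled points have an edgeR adjusted p under 0.05. The errors shrink with the block, most for SLC2A1 (SE 0.48 to 0.13 for TNFα), SLC2A3 and PFKFB3, whose line difference also moves from -0.67 to -0.84, and TPI1, PGK1 and PGAM1 stay near 0.

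Members were lowest in the library numbered 1 more often than genes at large, a difference given without a test. That was so for 21 of 37 members in untreated CTL, 21 in treated CTL, 25 in untreated DKD and 23 in treated DKD cells, where 39.4%, 36.9%, 42.7% and 41.7% of all 16118 genes were lowest in it. The median log2 ratio of library 1 to the mean of libraries 2 and 3 was -0.15, -0.12, -0.27 and -0.22 over members. SLC2A1 and PFKFB3 were far lower in it, at -1.52, -1.38, -1.68 and -2.41 for SLC2A1 and -1.21, -1.23, -2.11 and -2.77 for PFKFB3. What the number stands for is not given in the labels.

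In absolute terms the path was uneven. Per kilobase of principal transcript in untreated CTL cells, GAPDH led with 1519 ± 124 CPM (SD, n = 3), followed by ENO1 (647 ± 58.1), TPI1 (512 ± 14.1), LDHA (453 ± 39.2) and ALDOA (440.4 ± 65.4), of which LDHA and ALDOA lay within each other's spread. PKM and PGAM1 came next at 233 each, then GPI at 85.6 ± 5.04, SLC2A1 at 78.4 ± 39.0 and PGK1 at 75.7 ± 3.21 CPM per kb, of which SLC2A1 overlapped both others. HK2, at 31.5 ± 5.42, lay below all of these. PCK1 (0.144) and FBP1 (0.420) were among the lowest, above HK1 (0.0312) and PFKP (0.0181). The ranks depend on the transcript length used: with the median coding transcript SLC16A3 moved from 30.1 to 70.5 CPM per kb, while GAPDH and ENO1 still led.

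**Figure D5:**
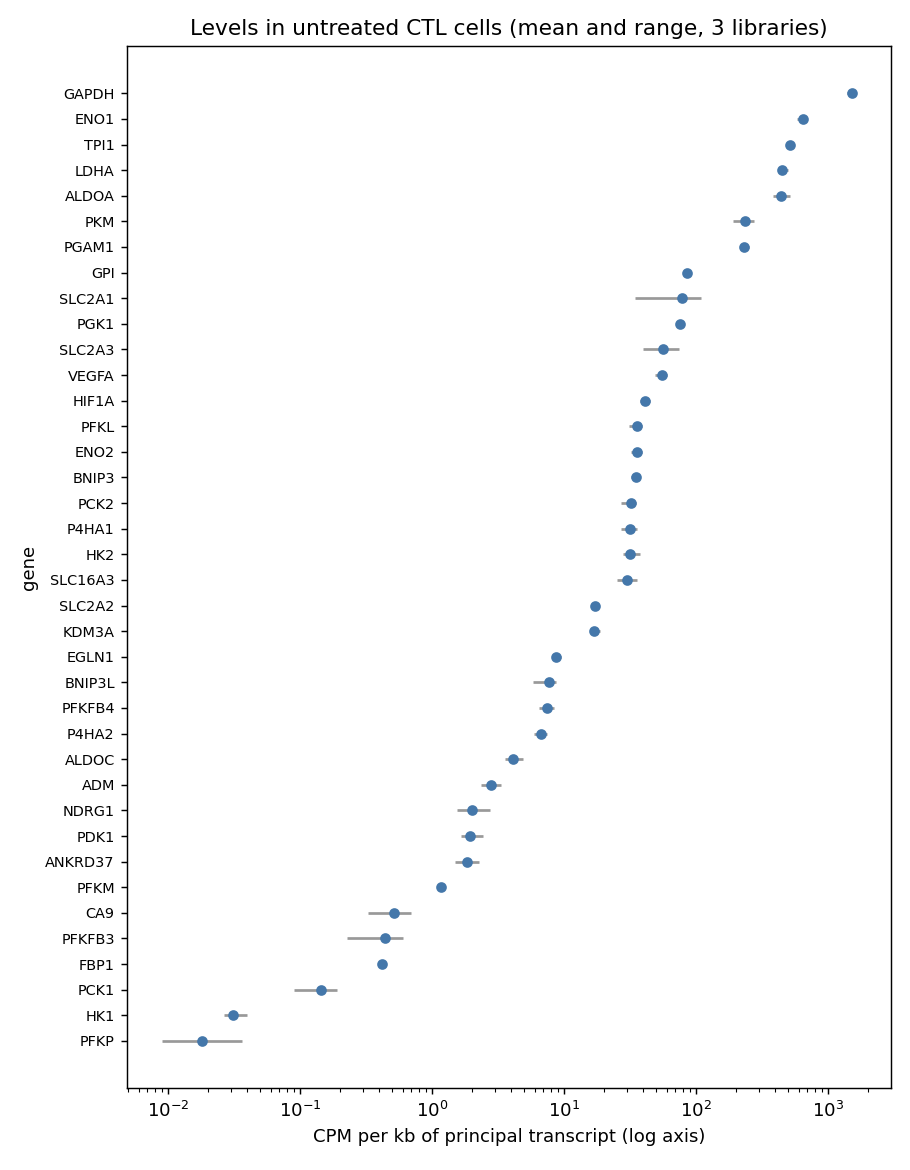
CPM per kilobase of principal transcript in untreated CTL cells, on a log axis, for the 38 members with counts there. Points are means and bars the range of 3 libraries; GAPDH (1519) is at the top and HK1 and PFKP at the bottom.

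Other genes of the same pathways were read from 3 lists. Of 36 further glycolysis and gluconeogenesis genes, 29 were tested. For the averaged TNFα effect 1 rose and 3 fell (3 and 7 with the block), and between the lines 6 were higher and 2 lower in DKD cells (8 and 5 with the block). Over all genes the shares were 5.02% higher and 2.20% lower with TNFα (12.4% and 8.82% with the block), and 8.49% higher and 6.04% lower in DKD cells (15.8% and 15.4% with the block). SLC2A10, a glucose transporter of intracellular membranes, rose with TNFα by 0.65 (SE 0.12, edgeR adjusted p = 0.00727) and was higher in DKD cells by 1.40 (SE 0.12, adjusted p = 2.74e-05). Both subunits of the mitochondrial pyruvate carrier were lower with TNFα: MPC1 fell by 0.52 (SE 0.10, adjusted p = 0.00764) and MPC2 fell by 0.28 (SE 0.07, adjusted p = 0.0354). PGM1, which links glycogen to glycolysis, fell by 0.30 (SE 0.06, adjusted p = 0.00739) and was higher in DKD cells by 0.50 (SE 0.06, adjusted p = 0.000156). PFKFB1, the liver form of the regulatory kinase, was higher in DKD cells (1.65, SE 0.18, adjusted p = 0.000113), and ADPGK, an ADP-dependent glucokinase, lower (-0.27, SE 0.05, adjusted p = 0.00311).

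Of 38 further HIF pathway genes and hypoxia targets, 34 were tested. With TNFα 2 rose and 1 fell (7 and 3 with the block), against 5.02% and 2.20% of all genes (12.4% and 8.82%). In DKD cells 4 were higher and 3 lower (6 and 7 with the block), against 8.49% and 6.04% (15.8% and 15.4%). ERO1A, an oxidase of the endoplasmic reticulum, rose with TNFα by 0.42 (SE 0.07, adjusted p = 0.00589) and was lower in DKD cells (-0.66, SE 0.07, adjusted p = 0.000158). FAM162A, a mitochondrial protein, did the reverse, at -0.42 (SE 0.05, adjusted p = 0.000391) and 0.45 (SE 0.05, adjusted p = 0.000106). ANGPTL4, an inhibitor of lipoprotein lipase, rose by 1.18 (SE 0.30, adjusted p = 0.0372) from a group mean of 0.0802 CPM in untreated CTL cells. KDM4C, a histone demethylase, was higher in DKD cells (0.72, SE 0.08, adjusted p = 0.000136) and MXI1, a MYC antagonist, lower (-0.66, SE 0.08, adjusted p = 0.000289). Directions were thus mixed in this list as among the members.

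All 14 regulators of glucose sensing and gluconeogenesis were tested. With TNFα 2 rose and 1 fell (2 and 3 with the block), and in DKD cells 4 were higher and 1 lower (4 and 3 with the block), against the same shares of all genes. PPARGC1A (PGC-1α, a coactivator of gluconeogenic genes) averaged 10.7 ± 1.17 CPM in untreated CTL, 24.9 ± 1.57 in treated CTL, 25.4 ± 7.31 in untreated DKD and 38.5 ± 4.92 in treated DKD cells (SD, n = 3). It rose with TNFα by 0.91 (SE 0.13, adjusted p = 0.0017), while its textbook target PCK1 fell. Between the lines both were higher in DKD cells, PPARGC1A by 0.94 (SE 0.13, adjusted p = 0.000651). NR3C1, the glucocorticoid receptor, fell by 0.47 with TNFα (SE 0.09, adjusted p = 0.00726), and FOXO1, a factor that drives PCK1, rose by 0.31 (SE 0.06, adjusted p = 0.0134). MLXIPL (ChREBP, the glucose-responsive factor), FOXO3 and HNF4A were higher in DKD cells by 0.43 (adjusted p = 0.00465), 0.32 (adjusted p = 0.0156) and 0.29 (adjusted p = 0.017). The interaction called 0 genes in each of the 3 lists, without and with the block.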

How the data were processed

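The authors deposited estimated counts per gene symbol (whole numbers) for 12 libraries. The tools named are CASAVA 1.7, Salmon 0.14.0 and DESeq2, with the build GRCh38/hg38, per the submitters' processing notes. Not given in the sources used here are how transcripts were summed to genes, which annotation was used and whether counting used strand. On the last point, 19 of the 40 members overlap an exon of a gene on the other strand. A second, normalised table was not used. All 12 columns were matched to samples by title, and 0 were left unmatched.

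From these counts, TMM factors, CPM and quasi-likelihood tests were computed with edgeR 4.0.16 (limma 3.58.1, R 4.3.3), with filterByExpr (minimum count 10, minimum total 15), 1 mean for each of the 4 groups and 8 residual degrees of freedom. P-values were adjusted by Benjamini-Hochberg over all 16118 genes tested, in each of 7 contrasts. Averaged contrasts give both lines, or both treatments, equal weight. The code was tested on simulated data. Libraries with the same number correlated in their deviations from the group means in all 18 pairs (0.19 to 0.69, against -0.54 to 0.31 for different numbers), and 12 of 12 libraries correlated best with their own number, so the numbers were taken to pair libraries and the test was repeated with the number as a block. Replicates differed beyond sampling noise, with chi-square values of 11.4 to 130.5 per degree of freedom. At these depths 1 count is worth 0.0238 to 0.0320 CPM.

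Ratios were tested by exact permutation (scipy 1.17.1, Python 3.11.15), and figures drawn with matplotlib 3.10.9. Alternatives were DESeq2 1.42.0, its size factors, no filter, only the groups compared, the block, and leaving out libraries. Values in every library are given for members called in any comparison with or without the block, for HIF1A and for their isoenzymes, and for each list up to 4 called genes with the smallest p. The members, lists and rules were chosen with earlier results of these data known. Positions and transcript lengths are from GENCODE v29, and upstream sequences from RefSeq.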

Additional observations from a re-analysis of the deposited data

Results flagged for a closer look

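CA9 was the 1 member whose 3 CTL pairs and 3 DKD pairs moved in opposite directions with TNFα. It measured 0.535, 1.12 and 0.840 CPM in untreated and 1.17, 1.2 and 0.840 in treated CTL cells (35 counts in both libraries of the third pair, which are equal but for the scaling), and 0.956, 1.81 and 1.24, then 0.225, 1.51 and 0.754 CPM in DKD cells. The difference of the TNFα effects (DKD minus CTL) was -1.05 on the log2 scale (SE 0.75, unadjusted p = 0.191, edgeR adjusted p = 1), and -1.24 (SE 0.56, adjusted p = 1) with the replicate number as a block. CA9 had 9 to 76 counts per library, and ARHGEF39, which overlaps it on the other strand, had 519 to 1187.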

How the results depend on the processing

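For 72 pairs of a member and a comparison named with values, alternative fits gave 1339 values. No direction reversed, 1187 values kept the side of the threshold, 114 gained the call and 38 lost it. The pairs were picked as those called with or without the block, and the fit with the block is among the alternatives. Of the 114 gains, 53 came from that fit and were fixed by the choice of pairs. The tally is therefore no support for the calls. Without the block 53 of the 72 pairs were not called, so they could only stay so or gain the call. All 38 losses fell on the 19 pairs that were called. With the replicate number as a block (6 residual degrees of freedom), the members called went from 0 to 9 for TNFα in CTL cells, 0 to 8 in DKD cells, 4 to 12 averaged, 4 to 14 between untreated lines, 4 to 12 between treated lines and 7 to 17 averaged, and from 0 to 0 for the interaction. DESeq2 called 2, 2 and 7 for the 3 TNFα comparisons, against 7.1%, 4.23% and 12.3% of all genes it tested. With libraries numbered 2 and 3 alone, 5, 3 and 11 were called for TNFα (13.8%, 8.43% and 24.4% of all genes), 7 between untreated lines (12.3%) and 13 averaged (25.4%). Without both DKD libraries numbered 1 (chosen after seeing the data), 5 were called for TNFα in CTL cells (8.6%) and 10 averaged (15.8%). Leaving out 1 library gave 0 to 1 (CTL), 0 to 1 (DKD) and 2 to 8 (averaged) for TNFα, the 1 and the 8 without DKD untreated 1 and the 2 without CTL TNFα 3 or DKD TNFα 3. Between the lines it gave 3 to 5, 2 to 5 (2 without CTL TNFα 1, CTL TNFα 2 or DKD TNFα 1) and 6 to 9. With the block the ranges were 5 to 12, 3 to 10 and 11 to 17 for TNFα, the lowest without CTL TNFα 2, DKD TNFα 2 and CTL untreated 3, and 8 to 16, 5 to 16 and 17 to 19 between the lines, the 8 without any CTL untreated library and the 5 without DKD TNFα 1 or 2. The block with libraries 2 and 3 alone gave 14 and 13 for TNFα in CTL and DKD cells (26% and 20.4% of all genes), and 15 in CTL cells without both DKD libraries numbered 1 (27.9%). For the fits that left out 1 library, shares over all genes are not given. Those ranges therefore do not show whether members shifted more than other genes. The cause of the shifts was not tested. With the block, 10 of 12 averaged TNFα calls and 17 of 17 averaged line calls were kept whichever library was left out, against 4 of 9, 3 of 8, 7 of 14 and 5 of 12 in single lines or treatments. How often calls of other genes were kept was not counted, so these counts do not set members apart. Depth limits HK1, PFKP, EGLN3, LDHB, PCK1, FBP1 and CA9, whose counts are low.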
